A study of Mus musculus with 12 samples.

Results

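The genes described here are 46 genes of DNA replication and of S phase, the part of the cell cycle in which the genome is copied. They were taken by gene symbol from a table of 55806 genes, each matched 1 row, and all 46 were measured in all 12 libraries. The libraries were made from total RNA of mouse osteoclasts, the multinucleated cells that resorb bone. Monocytes from the bone marrow of mice 8 to 12 weeks old were turned into osteoclasts in culture with the cytokines M-CSF and RANKL and collected at day 4. The 4 groups were female Per2 knockout, female control, male Per2 knockout and male control, each with 3 libraries, and each library of a group came from a different 1 of 3 labelled batches. Per2 encodes a protein of the circadian clock that represses clock transcription. The library names abbreviate the knockout as cKO, and neither the cells in which Per2 was deleted, nor the deleted exons, nor the genotype of the controls beyond the word control is given in the sources used here. The title of the series speaks of PER1, but the groups here follow the labels of the samples, which say Per2. The sample titles call the libraries of a group biological replicates. Whether separate mice gave the replicates is not stated, and the p-values below therefore measure only the spread between these libraries.

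A cell copies its DNA once per cycle. Origins are licensed in G1, when the origin recognition complex, CDC6 and CDT1 load the ring of 6 MCM subunits onto DNA. In S phase CDC45 and the GINS complex turn this ring into a moving helicase, and primase, the polymerases and the sliding clamp PCNA copy the strands. Many of these genes are known targets of the E2F transcription factors, which the retinoblastoma protein and its relatives hold back. In osteoclast cultures the precursors multiply under M-CSF, while the cells that fuse leave the cell cycle.

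Per2 was under 1 FPKM (fragments scaled to gene length and library size) in every library. It was 0.258, 0.204 and 0.589 FPKM in the libraries labelled female knockout, against 0.331, 0.53 and 0.368 FPKM in female controls (ratio of means 0.855, exact two-sided permutation p = 0.6). It was 0.466, 0.39 and 0.23 FPKM in male knockouts, against 0.579, 0.721 and 0.701 FPKM in male controls (ratio 0.543, p = 0.1 by the same exact permutation test, its lower limit at 3 against 3). Among the 6 female libraries, Per2 was highest in the library labelled female knockout replicate 3, so every direction below that concerns female knockouts rests on the labels. Depth was 13888150 to 17762190 assigned reads in 11 libraries and 41145397 in male knockout replicate 2. The members held at least 66 reads in a library, the lowest count being that of Orc1. Osteoclast markers were high in all groups: the 10 followed, among them Acp5 and Ctsk, summed to 10478 to 12805 FPKM in female knockouts, 8793 to 9738 in female controls, 8304 to 9306 in male knockouts and 8239 to 9447 in male controls.

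The 46 genes together were lower in female knockout than in female control cultures, and lowest in the male cultures of both genotypes. They took 0.344, 0.341 and 0.354% of assigned reads in the female knockout libraries, against 0.436, 0.453 and 0.468% in the female control libraries. They took 0.252, 0.28 and 0.274% in male knockouts, against 0.29, 0.299 and 0.253% in male controls. No female knockout library reached the share of any female control library, and none was as low as any male library, while the male groups overlapped. For 38 of the 46 genes the mean of the female knockouts lay below that of the female controls and above those of both male groups, as for 25.5% of all tested genes. Levels among the members spanned a wide range, with the mean over all 12 libraries at 164 FPKM for Pcna and at 1.83 FPKM for Orc1. In bulk RNA, fewer cells in S phase and less of these RNAs per cell cannot be told apart.

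**Figure D1:**
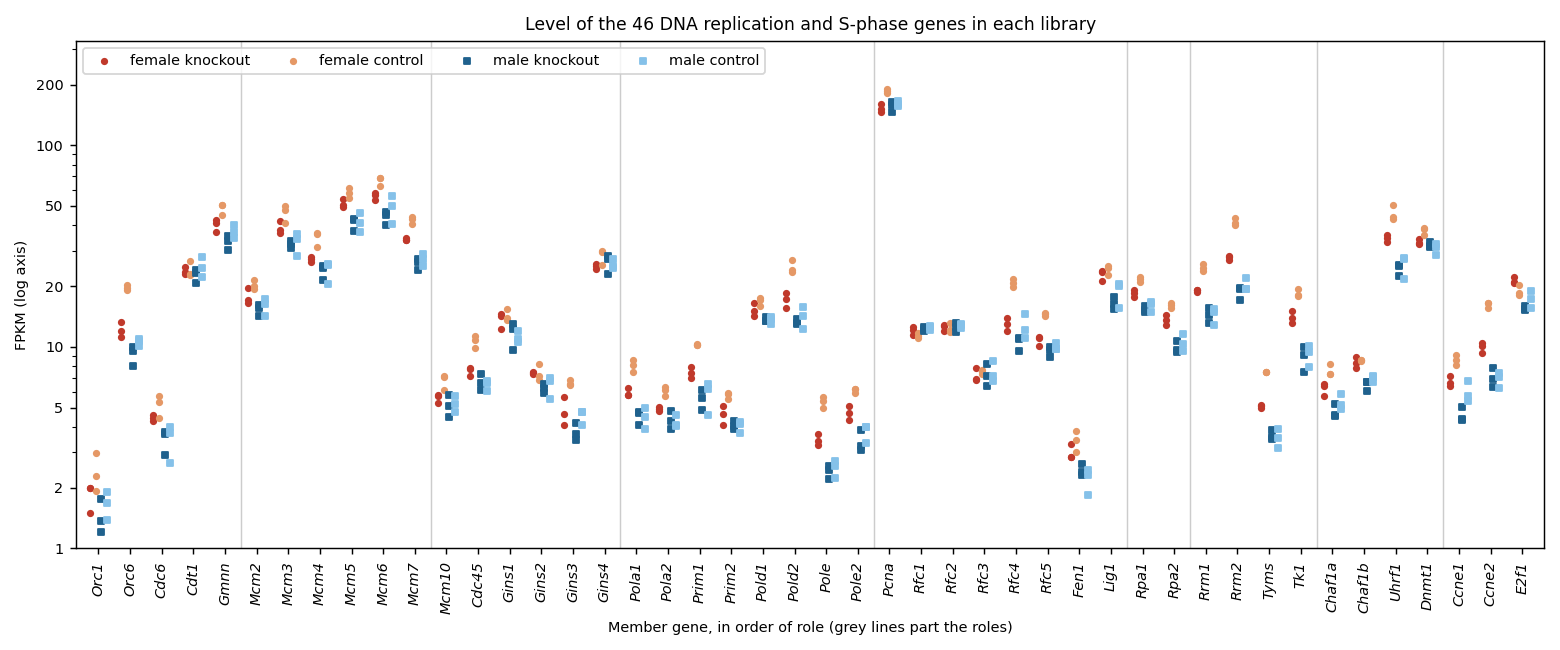
FPKM of each of the 46 genes (log axis) in the 12 libraries, with a column of points per group from left to right: female knockout, female control, male knockout and male control. Pcna stands above all other members, and for 30 of the 46 genes the 3 female control points lie above the other 9, as they do for 22.8% of all tested genes.

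**Figure D2:**
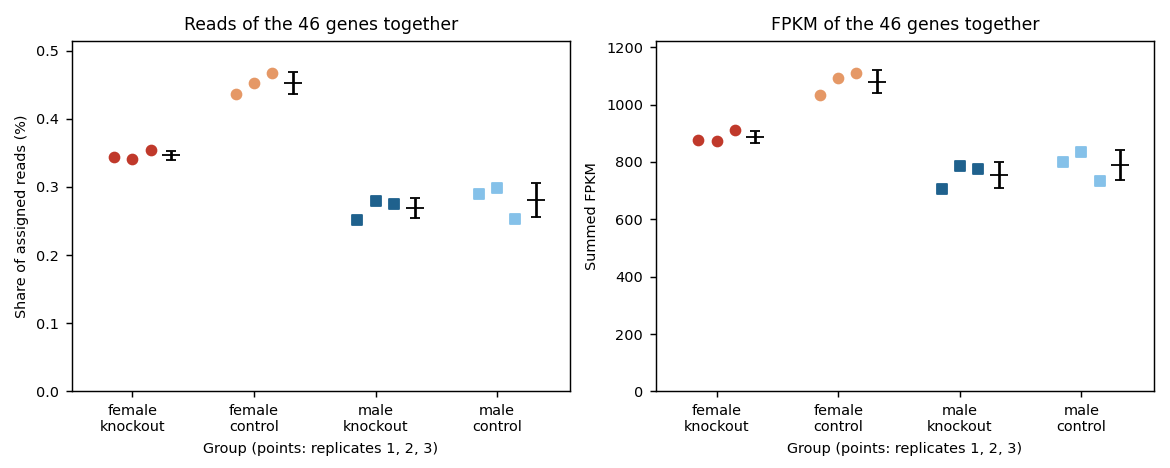
Share of assigned reads (left, %) and summed FPKM (right) of the 46 genes together in each library, with group means and SD (bars, n = 3). The female knockouts lie between the female controls and the male libraries.

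Female knockouts were compared with female controls to ask what differed in female osteoclast cultures labelled Per2 knockout. Of the 46 genes 28 fell and 0 rose, where 24.9% of all 12102 tested genes fell and 24.9% rose (limma on log2(FPKM + 1), Benjamini-Hochberg adjusted p under 0.05). The median log2 change was −0.26 over the 46 genes and −0.01 over all genes tested, and 42 of the 46 values were below 0. For 30 genes the 3 knockout libraries all lay below the 3 control libraries, and for 1 gene, E2f1, all lay above, where 29.9% of all tested genes lay wholly below and 28.5% wholly above. The falls were small, with log2 changes of −0.66 to −0.18 among the genes that passed. They were spread over the 9 roles: 2 of 5 licensing genes, 2 of 6 MCM subunits, 3 of 6 helicase activators, 7 of 8 polymerase and primase subunits, 3 of 8 clamp, loader and ligation genes, both RPA subunits, all 4 genes of nucleotide supply, 3 of 4 chromatin genes and 2 of 3 genes of S-phase entry. Within batches 1, 2 and 3 the median log2 difference was −0.23, −0.29 and −0.30, with 39, 40 and 41 members lower in the knockout library. These within-batch counts were not made over all tested genes. Libraries of the same batch shared little deviation from their group means (r = 0.021 on average, against −0.011 for different batches). With assigned reads as the denominator of the FPKM, the share of all genes that rose was 18.4% and that fell 36.3%, and 34 members fell.

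**Figure D3:**
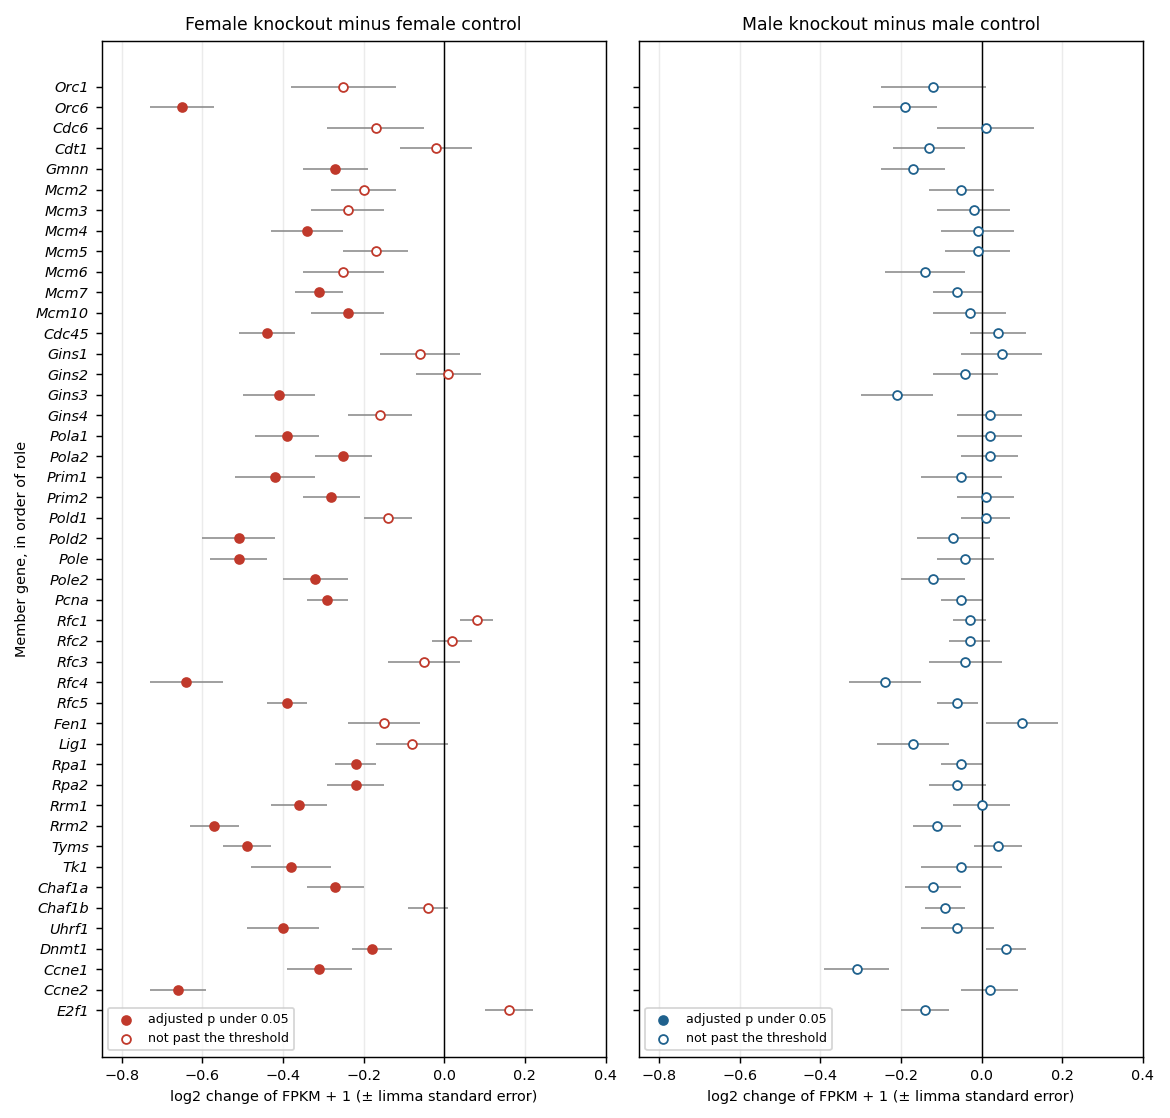
Log2 change of FPKM + 1 (points, with the limma standard error as bars) of each member between knockout and control, in females (left) and males (right). Filled points passed the adjusted p of 0.05: 28 in females, all to the left of 0, and 0 in males.

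Among the licensing genes Orc6, the smallest subunit of the origin recognition complex, fell the most. It was 11.1, 11.9 and 13.3 FPKM in female knockouts, against 19.5, 20.2 and 19.1 FPKM in female controls (ratio of means 0.619, log2 change −0.65 ± 0.08, limma adjusted p = 4.29e-05). The groups did not overlap, and male knockouts at 8.04, 9.95 and 9.5 FPKM and male controls at 10.7, 10.1 and 10.9 FPKM were lower than both. Gmnn encodes geminin, which blocks CDT1 and so keeps an origin from firing again. It fell to 40.3 ± 2.83 FPKM in female knockouts, against 48.6 ± 3.13 in female controls (SD, n = 3 each), a change of −0.27 (limma adjusted p = 0.0151). Its call did not hold without female knockout replicate 3 (0.0613), female control replicate 2 (0.0528) or female control replicate 3 (0.0543). Its target Cdt1 differed by −0.02, at 23.7 ± 1.01 and 24.1 ± 2.25 FPKM. Cdc6, which loads the helicase together with CDT1, was 4.45 ± 0.147 FPKM in female knockouts and 5.16 ± 0.648 FPKM in female controls and did not pass (−0.17, limma adjusted p = 0.274). Orc1, the largest subunit of the complex and the member with the lowest level, did not pass either, at 1.83 ± 0.281 and 2.39 ± 0.532 FPKM (−0.25, 0.137).

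All 6 MCM subunits had values below 0, at −0.34 to −0.17, and Mcm7 and Mcm4 passed the threshold. Mcm7 was 34.1, 33.8 and 34.7 FPKM in female knockouts, against 40.5, 43.1 and 44.1 FPKM in female controls (ratio 0.803, −0.31 ± 0.06, limma adjusted p = 0.00147). Mcm4 fell to 27.2 ± 0.769 FPKM, against 34.8 ± 3.13 FPKM. Mcm3 and Mcm6 lay just outside the threshold, with limma adjusted p of 0.0517 and 0.0523, and Mcm2 and Mcm5 had 0.0667 and 0.101. Mcm2, Mcm3, Mcm5 and Mcm6 passed with assigned reads as the denominator (limma adjusted p = 0.0108, 0.0104, 0.0148 and 0.0115), where 36.3% of all genes fell. They also passed after quantile normalization (0.0127, 0.0049, 0.00623 and 0.00326), where 29.3% of all genes fell. Whether the subunits differ from each other in their change was not tested. The proportions within the ring were alike in the groups as a description: Mcm6 had the highest mean level and Mcm2 the lowest in each group, with a ratio of 3.17 in female knockouts, 3.29 in female controls, 2.88 in male knockouts and 3.07 in male controls.

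Of the factors that activate the helicase, Cdc45 fell to 7.89, 7.14 and 7.77 FPKM in female knockouts, against 9.83, 11.3 and 10.8 FPKM in female controls (ratio 0.713, −0.44 ± 0.07, limma adjusted p = 0.000341). The GINS complex holds 4 subunits, and Gins3 fell (−0.41, limma adjusted p = 0.00364) while Gins1, Gins2 and Gins4 had changes of −0.06, 0.01 and −0.16 that did not pass, that of Gins2 being −0.09 with assigned reads as the denominator. Gins4 passed with assigned reads as the denominator (−0.27, limma adjusted p = 0.014) and after quantile normalization (−0.3, 0.00544). Gins2 shares 67.3% of its annotated exonic bases with Gse1, a gene on the opposite strand. No strand setting is given in the sources used here, so how reads over the shared bases were counted is not known. Mcm10, a scaffold that links the helicase to polymerase alpha, passed at 5.59 ± 0.279 FPKM in female knockouts, against 6.77 ± 0.594 FPKM in female controls (−0.24, limma adjusted p = 0.0399). That call did not hold after median-ratio rescaling (0.0522), with no filter on low values (0.0974), or without any 1 of female knockout replicates 1, 2 and 3 (0.122, 0.0573 and 0.0666), female control replicates 2 and 3 (0.116 and 0.123), male knockout replicate 3 (0.0527) and male control replicate 1 (0.0512).

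Of the 8 polymerase and primase subunits 7 fell, and Pold1, the catalytic subunit of polymerase delta, did not pass (−0.14, limma adjusted p = 0.0616). Pold1 passed with assigned reads as the denominator (−0.24, limma adjusted p = 0.0055) and after quantile normalization (−0.2, 0.0142). Pole, the catalytic subunit of the leading-strand polymerase epsilon, was 3.42, 3.25 and 3.71 FPKM in female knockouts, against 5, 5.41 and 5.66 FPKM in female controls (ratio 0.646, −0.51 ± 0.07, limma adjusted p = 0.000146). All 3 male knockout libraries (2.21, 2.46 and 2.57 FPKM) and all 3 male control libraries (2.57, 2.72 and 2.25 FPKM) were lower than the female ones. Its partner Pole2 fell by 0.32 and Pold2, the second subunit of polymerase delta, by 0.51 on the log2 scale. Polymerase alpha and primase lay down the first stretch of each new strand. Their 4 subunits Pola1, Pola2, Prim1 and Prim2 all fell, by 0.39, 0.25, 0.42 and 0.28 on the log2 scale.

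Pcna encodes the clamp that tethers polymerases to DNA and was the most abundant member. It was 146, 151 and 161 FPKM in female knockouts, against 181, 191 and 186 FPKM in female controls, a fall of 0.29 on the log2 scale (limma adjusted p = 0.000777). The clamp is opened by a loader of 5 RFC subunits, of which Rfc4 and Rfc5 passed. A difference in change between the subunits was not tested. Rfc5 fell to 11.1, 11.2 and 10.1 FPKM in female knockouts, against 14.5, 14.1 and 14.7 FPKM in female controls (ratio 0.747, −0.39 ± 0.05, limma adjusted p = 0.000102). Rfc4 fell to 13 ± 0.999 FPKM, against 20.7 ± 0.965 FPKM (−0.64, limma adjusted p = 0.000179). Rfc1, Rfc2 and Rfc3 had changes of 0.08, 0.02 and −0.05 and did not pass; with assigned reads as the denominator these were −0.02, −0.08 and −0.15, and none passed. In annotated exonic bases Rfc4 shares 12.7% with Eif4a2, Rfc5 10.7% with Wsb2 and Rfc2 15.1% with Lat2, all on the opposite strand. Okazaki fragments are trimmed by FEN1 and joined by LIG1, and neither Fen1 (−0.15) nor Lig1 (−0.08) passed. Fen1 shares 78.8% of its annotated exonic bases with the antisense gene Gm10143, which was at most 0.244 FPKM, and 5.37% with Tmem258, which reached 44 FPKM, both on the opposite strand.

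Both RPA subunits among the 46 genes fell by 0.22 on the log2 scale. RPA coats single-stranded DNA at the fork. Rpa1 was 19.1, 17.6 and 18.6 FPKM in female knockouts, against 20.9, 22.3 and 21.8 FPKM in female controls (ratio 0.852, −0.22 ± 0.05, limma adjusted p = 0.00498). Rpa2 was 13.6 ± 0.838 and 16 ± 0.436 FPKM, a call (limma adjusted p = 0.0211) that did not hold without female knockout replicate 1 or 2 (0.0502 and 0.0791) or female control replicate 2 or 3 (0.0515 and 0.0652).

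The 4 members that supply deoxynucleotides all fell. Rrm2, the small subunit of ribonucleotide reductase whose level follows S phase, was 28.2, 26.9 and 27.9 FPKM in female knockouts, against 40.1, 43.5 and 41.1 FPKM in female controls (ratio 0.666, −0.57 ± 0.06, limma adjusted p = 2.29e-05). This was the smallest p of the 46 genes in females. In males it was 17.1, 19.4 and 19.5 FPKM in knockouts and 19.4, 21.8 and 19.3 FPKM in controls. Its partner Rrm1 fell to 19 ± 0.283 FPKM, against 24.7 ± 0.911 FPKM in female controls (−0.36). Tyms, thymidylate synthase, fell to 5.07 ± 0.0999 FPKM, against 7.5 ± 0.00815 FPKM (−0.49). Tk1, the thymidine kinase of dividing cells, fell to 14 ± 1.05 FPKM, against 18.5 ± 0.81 FPKM (−0.38).

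Of the genes that rebuild chromatin and copy DNA methylation behind the fork, Uhrf1, which brings the methyltransferase to newly made DNA, was 33.2, 34.6 and 35.8 FPKM in female knockouts, against 44.2, 43.2 and 50.5 FPKM in female controls (ratio 0.752, −0.40 ± 0.09, limma adjusted p = 0.00411). Dnmt1, that methyltransferase, changed less, at 33.2 ± 0.95 and 37.7 ± 1.63 FPKM (−0.18), and its call did not hold without female control replicate 2 (limma adjusted p = 0.0605) or without female knockout replicate 1 (0.0553). CAF-1 places histones on new DNA. Its subunit Chaf1a fell (−0.27, limma adjusted p = 0.0115) and its subunit Chaf1b did not pass (−0.04, 0.602). Chaf1a shares 52.5% of its annotated exonic bases with Ubxn6 on the opposite strand.

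The cyclins that start S phase fell while E2f1 had a value above 0. Ccne2, cyclin E2, was 10.1, 10.4 and 9.27 FPKM in female knockouts, against 16.5, 16.5 and 15.7 FPKM in female controls (ratio 0.611, −0.66 ± 0.07, limma adjusted p = 3.14e-05), the largest log2 fall of the 46. Ccne2 shares 17.4% of its annotated exonic bases with Ints8 on the opposite strand. Ccne1, cyclin E1, was 6.73 ± 0.372 and 8.61 ± 0.483 FPKM (−0.31, limma adjusted p = 0.00624). E2f1, an activating E2F factor, was 21, 20.6 and 22.1 FPKM in female knockouts, against 18.5, 18.1 and 20.2 FPKM in female controls (0.16, limma adjusted p = 0.0621). All 3 knockout libraries of E2f1 lay above the 3 control libraries, and its value was 0.06 with assigned reads as the denominator (0.5) and 0.18 after median-ratio rescaling (0.0425).

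In males, 0 of the 46 genes rose and 0 fell, and 0% of all tested genes rose and 0% fell. The median log2 change of the 46 genes was −0.05, against 0.01 over all genes tested. An unadjusted p under 0.05 in limma was found for 5 of the 46 and for 822 of all 12102 tested genes. Voom, the limma method for counts, run on recovered reads, also called 0 of the 46. The 3 with the smallest p had no call and are given as values. Ccne1 was 4.34, 5.02 and 4.41 FPKM in male knockouts, against 5.41, 6.78 and 5.68 FPKM in male controls (−0.31 ± 0.08, limma adjusted p = 0.538). Rfc4 was 9.56, 10.9 and 11 FPKM, against 11.1, 12.1 and 14.6 FPKM (−0.24, 0.705), and Orc6 had −0.19 (0.708). These were the 3 members whose male groups did not overlap, all with the knockouts below, a share near the 5.24% of all tested genes that lay wholly below, and 0 members lay wholly above, against 7.06% of all genes. The male batches did not share a direction: the median log2 difference was −0.16 in batch 1, with 46 of 46 members lower in the knockout library, −0.07 in batch 2 with 34, and 0.13 in batch 3 with 10. Here too the counts within batches were not made over all tested genes. Replicates of a group also differed together, since male knockout replicate 1 was the lowest of the male knockouts for 40 members and male control replicate 3 the lowest of the male controls for 41, where this held for 38.7% and 37.5% of all tested genes.

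The knockout effect in females was set against that in males with an interaction term, which tests the difference itself. It was lower in females for 16 of the 46 genes and higher for 1, where 16.7% and 17.9% of all tested genes passed. All 16 were among the 28 that fell in female knockouts. The interaction holds that same female comparison, and no male change passed, so this overlap is largely built in. For Ccne2 the effect was −0.66 in females and 0.02 in males (difference −0.67 ± 0.11, limma adjusted p = 0.000637). For Tyms it was −0.49 in females and 0.04 in males (−0.52 ± 0.08, limma adjusted p = 0.000789). Cdc45 had −0.44 and 0.04 (−0.48 ± 0.10, 0.00329), Pole −0.51 and −0.04 (−0.47 ± 0.10, 0.00439) and Rfc5 −0.39 and −0.06 (−0.33 ± 0.07, 0.00555). Orc6 had −0.65 and −0.19 (−0.46 ± 0.11, limma adjusted p = 0.00755). Rpa1 did not pass (−0.17, 0.0938). Ccne1 had −0.31 in both sexes and a difference of 0.00. The 1 gene with a higher effect in females was E2f1 (0.16 and −0.14, difference 0.30 ± 0.09, limma adjusted p = 0.0247), which did not pass with assigned reads as the denominator (0.21, 0.109) or after quantile normalization (0.23, 0.0712). With assigned reads as the denominator 13.6% of all genes were higher and 26% lower, with 22 members lower. Of the 17 calls, 10 held under all alternatives in which the gene was tested, and those of Mcm7 (−0.25), Pola2, Prim2, Pcna, Rfc4, Dnmt1 (−0.24) and E2f1 did not. Pole, among the 10, was not tested with the filter of 5 FPKM. Over the 12 fits that leave out 1 library each, the call was lost in 9 for Mcm7, in 9 for Pola2, in 8 for Prim2, in 8 for Rfc4, in 6 for Dnmt1, in 5 for Pcna and in 5 for E2f1. With the batch as a replicate block Pola2 (−0.28) did not pass (limma adjusted p = 0.0524). The limma adjusted p of these genes stayed at or below 0.109 in the alternatives.

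Female and male cultures differed in these genes in both genotypes, and by more in controls. The 2 sex comparisons share their libraries with the knockout comparisons, so they restate the same group means from another side. In controls 39 of the 46 genes were higher in females and 1 lower, where 29.5% and 30.7% of all tested genes passed, and the median log2 difference was 0.46, against 0 over all genes. With assigned reads as the denominator the shares of all genes were 46.9% and 20.4%. The median of all genes moved to 0.18 and that of the members to 0.64. This setting multiplies each library by a constant, so it moves the members and all genes nearly alike. It therefore cannot test the gap of 0.46 between them. Rrm2 was 2.06-fold (log2 difference 1.01 ± 0.06, limma adjusted p = 1.04e-07) and Ccne2 2.34-fold (1.12 ± 0.07, 2.02e-07) in female controls over male controls. Pole was 2.13-fold, Orc6 1.85-fold, Uhrf1 1.81-fold, Cdc45 1.65-fold, Mcm7 1.57-fold, Rpa2 1.54-fold and Rfc5 1.45-fold. Rfc1 was lower in female controls (−0.13, limma adjusted p = 0.0202), a value of 0.07 (0.218) with assigned reads as the denominator and uncalled in 4 of the 12 fits without 1 library. Of the 39 higher genes, Orc1 (0.35) was uncalled in 6 of those fits and Gins1 (0.33) in that without female control replicate 2 (limma adjusted p = 0.0553). Cdt1, E2f1, Gins2, Gins4, Rfc2 and Rfc3 did not pass.

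In knockouts 26 of the 46 genes were higher in females than in males and 0 were lower, where 13.1% and 20.4% of all tested genes passed, and the median log2 difference was 0.28, against −0.02 over all genes. With assigned reads as the denominator those shares were 26.5% and 13.2%, with 38 members higher. Rrm2 was 1.48-fold (0.54 ± 0.06, limma adjusted p = 8.46e-05) and Mcm7 1.32-fold (0.39 ± 0.06, 0.000679) in female knockouts over male knockouts. E2f1, which did not pass between the controls, was 21.2 ± 0.761 FPKM in female knockouts and 15.5 ± 0.345 FPKM in male knockouts (0.43 ± 0.06, limma adjusted p = 0.000549). Chaf1b (0.32), Rpa2 (0.42), Pole (0.39), Orc6 (0.37), Lig1 (0.45) and Gins3 (0.27) were the others of lowest adjusted p in their roles. With the batch as a replicate block Gins3 did not pass (limma adjusted p = 0.0564). The call of Gins3 was lost in 9 of the 12 fits without 1 library, that of Rfc4 (0.28) in 5, that of Rfc5 (0.17) in 4, those of Gmnn (0.27) and Mcm6 (0.34) in 3 each and that of Prim1 (0.37) in 2. Of the 28 genes that fell in female knockouts, 21 were still higher there than in male knockouts. The other 7 were Cdc45, Dnmt1, Mcm4, Mcm10, Pcna, Pola2 and Prim2, which did not pass. Pcna, at 152 ± 7.85 FPKM in female knockouts and 156 ± 8.27 FPKM in male knockouts, had a log2 difference of −0.03, and 0.15 after quantile normalization (limma adjusted p = 0.0305).

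**Figure D4:**
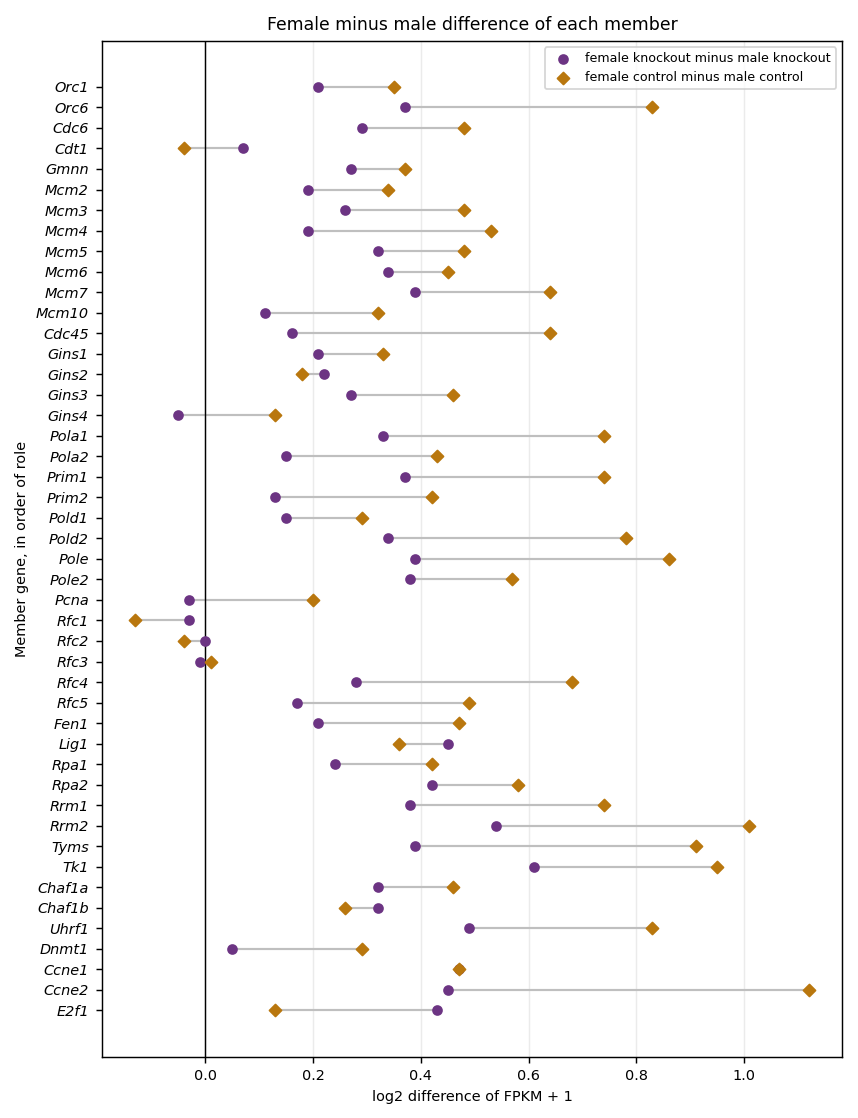
Log2 difference of FPKM + 1 between females and males for each member, in knockouts (circles) and in controls (diamonds). Most diamonds lie to the right of the circles, with Ccne2 at 0.45 in knockouts and 1.12 in controls, while E2f1 runs the other way with 0.43 and 0.13.

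Of 89 tested genes in 7 further lists, 64 fell and 5 rose in female knockouts, where 24.9% of all tested genes fell and 24.9% rose. In males 0 passed, as for all tested genes. Origin genes and kinases fell for 7 of 9 genes, led by Orc2, a further subunit of the origin recognition complex, at 10.9 ± 0.297 FPKM in female knockouts and 19.5 ± 0.578 FPKM in female controls (−0.79, limma adjusted p = 5.69e-07). Other fork and checkpoint genes fell for 18 of 25 and rose for 1, with Dna2, a nuclease of Okazaki fragments, at −0.74, Tipin at −0.59 and the checkpoint kinase Atr at −0.57. All 6 genes of chromatin assembly fell, Hells by 0.61 and the histone chaperone Asf1b by 0.48 on the log2 scale. Of the RB and E2F list 13 of 16 fell, with Tfdp1, the partner that E2F factors need to bind DNA, at 33.7 ± 0.169 and 51.7 ± 1.94 FPKM (−0.60) and Mybl2 at −0.79. All 12 mitosis genes fell, with a median of −0.67 and Mki67, a marker of cycling cells, at 21.9 ± 0.861 and 41.6 ± 0.94 FPKM (−0.90, limma adjusted p = 1.42e-07). The last 2 lists were mixed: of 9 other nucleotide genes 4 fell and 2 rose, with a median of −0.10, and of 12 G1 cyclins, kinases and inhibitors 4 fell and 2 rose, with a median of 0.04. Whether mitosis genes fell by more than the 46 S-phase genes was not tested.

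The 5 genes that rose were Samhd1, Dck, Ccnd2, Ccnd3 and Timeless, a fork protein (0.44), the last of them named after its value was seen. Samhd1, which degrades deoxynucleotides, was 61.7 ± 4.63 FPKM in female knockouts and 28.3 ± 0.61 FPKM in female controls (1.10, limma adjusted p = 5.35e-08), and Dck, deoxycytidine kinase of the salvage route, was 50.1 ± 5.39 and 21.5 ± 2.17 FPKM (1.18). Both were higher still in males, Samhd1 at 104 ± 1.8 FPKM in male knockouts and 99.4 ± 4.29 FPKM in male controls, so their order over the groups was the opposite of that of Rrm2. Of the cyclins D that act in G1, Ccnd2 rose (0.91) and Ccnd3 rose (0.55), while their kinases Cdk4 (−0.48) and Cdk6 (−0.30) fell.

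Lists of markers differed in how many of their genes passed in female knockouts, where 24.9% of all tested genes fell and 24.9% rose. In males 0 passed in any of them, as for all tested genes. The 6 interferon response genes summed to 928 to 1377 FPKM in female knockouts, 49.7 to 76.4 in female controls, 3005 to 3234 in male knockouts and 2781 to 3251 in male controls, and 6 of 6 rose in female knockouts. The 10 monocyte and macrophage markers summed to 1757 to 1909, 1065 to 1092, 2308 to 2349 and 2240 to 2494 FPKM in the same order of groups, with 9 of 10 higher and 1 lower in female knockouts. The 7 B lineage markers, of which Vpreb1 was at 0 in female controls, summed to 11.3 to 13.7, 26.6 to 41.2, 10.6 to 22.1 and 12.4 to 20.5 FPKM, and 5 of 5 tested fell in female knockouts. The 9 neutrophil markers summed to 2375 to 3080 FPKM in female knockouts and 2438 to 2623 FPKM in female controls, with 1 of 9 higher. The 6 mast cell and basophil markers summed to 10 to 14.8 FPKM in female knockouts and 20.2 to 40 FPKM in female controls, with 2 of 5 tested lower. The 6 dendritic cell markers summed to 33.7 to 42.5 FPKM in female knockouts and 17 to 21.8 FPKM in female controls, mostly Ccr7, with 1 of 4 tested higher and 1 lower. Of the 10 osteoclast markers 5 rose and 1 fell in female knockouts. Between knockouts 8 of them were higher in females, as were 13.1% of all tested genes. The erythroid, T and NK, stem and progenitor, and stromal lists had 0 calls in female knockouts. The reads assigned to genes were 1.01 to 1.02 times the deposited FPKM denominator in female knockouts, 0.936 to 0.948 in female controls and 1.07 to 1.11 in the male libraries. The part of these in the changes of the 46 genes was not tested.

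The promoters of the 46 genes were searched for the letters that E2F factors bind, since E2F targets are known to include many of them. RefSeq promoter windows (build GRCm38.p6, 250 bases before to 50 after a gene's start) were at hand for 37 of the 46 genes. An E2F match was any of TTTCCCGC, TTTGGCGC, TTTCGCGC and TTTGCCGC on either strand, and these can overlap each other. Some genes have more than 1 annotated start, and the 37 genes had 45 windows. A match was found for 15 of the 37 genes (40.5%), and for 2.6% of all 27025 genes and 4.88% of the 8643 tested genes with a window. The CCAAT box on either strand was found for 62.2% of the 37 genes and 41.1% of all genes. A match describes letters and not binding.

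The windows below show matches in genes that fell and in genes that did not pass, with the E2F letters in capitals. Mcm7 and Uhrf1 are members with full statistics in female knockouts and an E2F match. Mcm5 and Mcm6, chosen after the matches were seen, hold pairs of matches that overlap on opposite strands. They did not pass in female knockouts with the settings given, but passed with assigned reads as the denominator (limma adjusted p = 0.0148 and 0.0115). Rrm2, chosen in the same way, had the smallest p of the 46 in females and holds no match to these letters. The windows are Mcm7 at chr5:138171834-138172133 (minus strand), Uhrf1 at chr17:56304063-56304362 (plus strand), Mcm5 at chr8:75109259-75109558 (plus strand), Mcm6 at chr1:128359656-128359955 (minus strand) and Rrm2 at chr12:24708004-24708303 (plus strand), each written 5′ to 3′ along the gene.
Mcm7: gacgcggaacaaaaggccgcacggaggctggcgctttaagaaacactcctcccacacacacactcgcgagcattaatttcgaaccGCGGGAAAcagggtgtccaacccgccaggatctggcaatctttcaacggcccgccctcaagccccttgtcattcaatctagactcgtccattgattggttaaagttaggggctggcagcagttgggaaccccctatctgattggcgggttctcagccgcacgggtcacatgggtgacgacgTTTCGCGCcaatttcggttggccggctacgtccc
Uhrf1: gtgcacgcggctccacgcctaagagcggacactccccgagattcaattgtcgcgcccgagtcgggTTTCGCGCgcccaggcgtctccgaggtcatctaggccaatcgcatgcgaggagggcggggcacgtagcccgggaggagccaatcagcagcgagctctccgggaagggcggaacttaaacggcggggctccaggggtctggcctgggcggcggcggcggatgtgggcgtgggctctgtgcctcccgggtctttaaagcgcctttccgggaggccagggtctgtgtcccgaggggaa
Mcm5: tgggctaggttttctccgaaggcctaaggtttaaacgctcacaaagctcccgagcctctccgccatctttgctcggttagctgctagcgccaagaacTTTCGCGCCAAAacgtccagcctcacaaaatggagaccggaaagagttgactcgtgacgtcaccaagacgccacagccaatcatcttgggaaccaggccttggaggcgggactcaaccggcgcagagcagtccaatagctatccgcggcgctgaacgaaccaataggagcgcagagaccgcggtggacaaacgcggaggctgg
Mcm6: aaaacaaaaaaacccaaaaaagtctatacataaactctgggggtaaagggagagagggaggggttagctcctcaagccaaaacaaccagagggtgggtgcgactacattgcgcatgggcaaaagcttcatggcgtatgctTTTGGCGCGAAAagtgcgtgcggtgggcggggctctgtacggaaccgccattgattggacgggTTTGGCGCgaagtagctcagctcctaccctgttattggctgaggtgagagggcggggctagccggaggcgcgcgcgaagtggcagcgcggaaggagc
Rrm2: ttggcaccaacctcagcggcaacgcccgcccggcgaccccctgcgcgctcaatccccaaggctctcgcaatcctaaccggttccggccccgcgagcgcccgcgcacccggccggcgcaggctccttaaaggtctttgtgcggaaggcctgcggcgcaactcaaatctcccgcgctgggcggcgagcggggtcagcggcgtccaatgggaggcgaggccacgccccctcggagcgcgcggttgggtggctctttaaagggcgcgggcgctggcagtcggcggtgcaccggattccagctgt

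Among the 15 genes with an E2F match, 6 fell in female knockouts, with a median log2 change of −0.24. Among the 22 genes with a window and no match, 17 fell, with a median of −0.30. Of all tested genes 24.9% fell. Mcm3, Mcm5, Mcm6 and Pold1, which hold a match, also fell with assigned reads as the denominator, as did Mcm2, which holds none. Whether genes with and without a match differ in their change was not tested. Of the 6 MCM subunits a window was at hand for 5, and Mcm3, Mcm5, Mcm6 and Mcm7 held a match while Mcm2 did not. First bases of the matches lay between 219 bases before the start, in Dnmt1, and 40 bases after it, in Pold1.

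**Figure D5:**
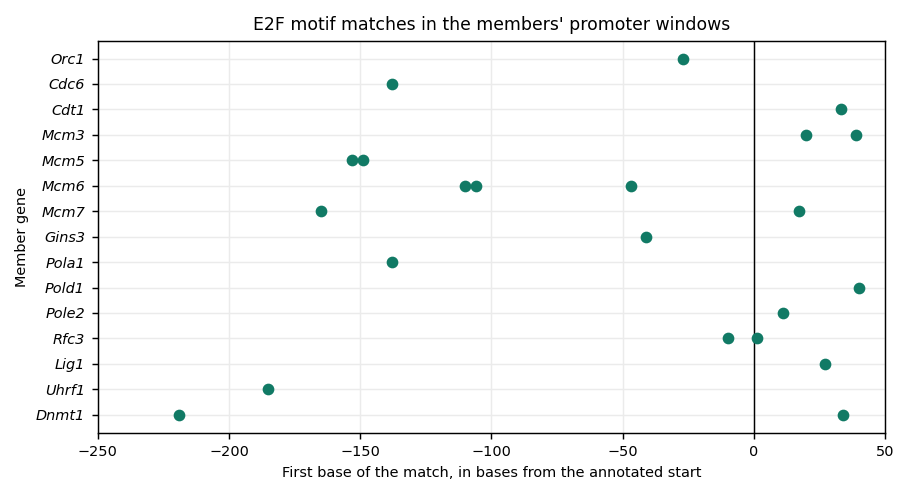
Position of each E2F match (first base, in bases from the annotated start; 0 marks the start) in the promoter windows of the 15 members that hold one. Mcm6 holds 3 matches and Mcm3, Mcm5, Mcm7, Rfc3 and Dnmt1 hold 2 each.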

How the data were processed

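The RNA sequencing values of 12 mouse osteoclast libraries came from 1 table. The authors deposited FPKM, that is fragments scaled to gene length and library size. HISAT2 2.0.5, featureCounts 1.5.0-p3 and mouse build mm10 were used, per the submitters' processing notes. Neither the FPKM denominator nor the strand setting is given in the sources used here. The table held 55806 genes, 1 line without a gene was dropped, and 0 columns had no sample. Of 52080 gene identifiers shared with GENCODE M21, 2.9% had the same position, so no coordinates of the table are given. Reads were recovered by multiplying FPKM by gene length and dividing by what a single read was worth in that library, and 100% of values came out whole within 0.01.

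The test covered the 12102 genes that reached 1 FPKM in 3 or more libraries, all 46 members among them. The model was limma 3.58.1 (R 4.3.3) on log2(FPKM + 1), with all 12 libraries, 4 group means and a trend in the prior variance, two-sided, with Benjamini-Hochberg adjustment over all tested genes and a threshold of 0.05. Every adjusted p is from this model unless another setting is named. Log2 changes are on the log2(FPKM + 1) scale, which understates changes of low genes. Fold values are ratios of mean FPKM. Errors beside FPKM are SD and beside log2 changes limma standard errors. Per2, too low for limma, was tested with an exact permutation test.

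The alternatives were other scalings (assigned reads, median ratio, quantile), pseudocounts of 0.1 and 5, no filter, a filter of 5 FPKM, limma voom on recovered reads, the batch as a replicate block, only the groups compared, no trend, and each library left out. The members, the lists of other genes and markers and the tests were chosen with earlier results of these data known. By rule, full statistics are given for the member of each role with the smallest adjusted p in a comparison, or for the 3 smallest p where no member passed, and at most 4 genes are named from each further list. Libraries with the same number share a labelled batch. Their deviations from the group means correlated at r = 0.021 on average over 18 pairs, against −0.011 over 36 pairs of different numbers. Between replicates, chi-square per degree of freedom was 4.33 to 12.4, above sampling noise, and each library was counted. Exon overlaps come from GENCODE M21. Pcna has a processed pseudogene, Pcna-ps2, of at most 3.88 FPKM. The statistics were tested on simulated data with noise drawn independently for each gene and library. That setting lacks the shared shifts of the members between replicates described above.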

Additional observations from a re-analysis of the deposited data

Results flagged for a closer look

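For 17 of the 46 genes the interaction test found that the difference between knockout and control was not the same in females and males (limma adjusted p under 0.05). The effect was lower in females for 16 and higher for 1, where 16.7% and 17.9% of all tested genes passed. Of the 17 calls 10 held under all alternatives in which the gene was tested. Those of Mcm7, Pola2, Prim2, Pcna, Rfc4, Dnmt1 and E2f1 did not. The knockout effect in females minus that in males was −0.67 for Ccne2, −0.52 for Tyms, −0.48 for Cdc45, −0.47 for Pole and −0.46 for both Rrm2 and Orc6 on the log2 scale. It was −0.44 for Pold2, −0.41 for Pola1, −0.40 for Rfc4, −0.36 for Rrm1 and −0.33 for Rfc5. It was −0.29 for Prim2, −0.28 for Pola2, −0.25 for Mcm7 and −0.24 for both Pcna and Dnmt1. E2f1 went the other way with 0.30.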

How the results depend on the processing

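In females 28 of the 46 genes fell with the settings given, and 27 to 34 fell under the other scalings, pseudocounts and filters, voom, the block and the fit of only the groups compared. Between controls 35 to 43 were higher in females, between knockouts 20 to 38, and 10 to 22 had a lower knockout effect in females, the count of 10 with no filter on low values. In these settings 10.1 to 36.3% of all tested genes fell in females. Between controls 12.9 to 46.9% were higher in females, and between knockouts 4.14 to 26.5%. A lower knockout effect in females passed for 6.01 to 26%. Each upper limit, of members and of all genes, was reached with assigned reads as the denominator. The count of 35 came with the filter of 5 FPKM, where 42 members were tested and Cdc6, Fen1, Orc1 and Pole were not. E2f1 alone rose in female knockouts after median-ratio rescaling and by voom (count 1), and its interaction was not called with assigned reads, quantile normalization or no filter (count 0). Rfc1, lower in female controls, was not called with assigned reads, quantile normalization or voom (count 0). Without 1 library the falls in females numbered 25 to 31 and the rises 0 to 1, the lower interactions 10 to 19 and the higher ones 0 to 1, the members higher in female controls 37 to 41 and lower 0 to 1, and those higher in female knockouts than male knockouts 20 to 29. Of all tested genes 21.2 to 25.5% fell in females in those fits, and 14.1 to 16% had a lower interaction. The shares higher in females were 26.4 to 29.5% between controls and 8.57 to 14.2% between knockouts. Without female knockout replicate 3, whose Per2 level goes against its label, 29 members fell. With the batch as a replicate block, pairing by labelled batch, 28 fell in females, 15 had a lower interaction, and no call changed other than those of Pola2 and Gins3 given above. Among values called in either setting, directions turned for Rfc1 (0.07, limma adjusted p = 0.218) and Rfc2 (0.16, 0.0181) between controls with assigned reads, and for Pcna between knockouts (0.15, 0.0305) after quantile normalization. Under the 3 other scalings 23 further values, none called and at most 0.11 in size as given, also changed sign, among them those of Rfc1, Rfc2 and Gins2 in female knockouts. The cause of these differences was not tested. In males 0 members were called under every setting run.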
